A study of Mus musculus with 21 samples.

Results

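The 10 genes described here build and load the major histocompatibility complex (MHC) molecules that show peptides to T cells. They were taken by symbol from the read counts of 21 whole mouse livers, and all 10 were found among the 55418 genes counted. Transcripts were measured by RNA-seq in 4 groups that combine genotype and diet. WT livers came from wild-type mice. KO livers came from mice with Mboat7, an acyltransferase gene of phosphatidylinositol remodelling, deleted in hepatocytes. Each genotype was studied on chow (6 WT and 7 KO livers, mice 10 weeks old) and on a diet whose label reads rich in fat, poor in methionine and short of choline (HFMCD; 4 WT and 4 KO livers), which was started at 6 to 8 weeks of age and given for 6 weeks. The treatment note abbreviates that diet as HFCDD, which names no methionine, and the sources used here do not settle its composition. HFMCD mice were thus older than chow mice and carried another series of animal numbers, so that diet, age and any batch tied to the animals cannot be told apart. The strain, the sex and the Cre driver are not given in the sources used here. Per the labels only hepatocytes were targeted. All livers were perfused with PBS before RNA was taken.

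MHC class II molecules are pairs of an alpha and a beta chain on professional antigen-presenting cells (dendritic cells, macrophages and B cells), and they show peptides from engulfed proteins to CD4+ T cells. Cd74, the invariant chain, guides new class II pairs to the endosome, and H2-DM, a pair made from H2-DMa and H2-DMb1, exchanges its remnant for an antigenic peptide. MHC class I molecules are carried by nearly all nucleated cells, hepatocytes included: a heavy chain (H2-K1 or H2-D1) pairs with beta-2 microglobulin (B2m) and is loaded in the endoplasmic reticulum with peptides pumped in by the transporter of Tap1 and Tap2, for recognition by CD8+ T cells. In the liver, Kupffer cells and recruited macrophages, dendritic cells and sinusoidal endothelium are known as the main cells with class II.

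Of the 10 genes, 8 lie in the H2 complex on chromosome 17 (GRCm38, GENCODE M21). In order along it they are H2-K1 (33996017 to 34000347, minus strand), H2-DMa (34119541 to 34139101, plus), H2-DMb1 (34153072 to 34160230, plus), Tap1 (34187553 to 34197225, plus), H2-Ab1 (34257689 to 34269419, plus), H2-Aa (34282744 to 34287823, minus), H2-Eb1 (34305867 to 34316674, plus) and H2-D1 (35262730 to 35267499, plus). B2m lies on chromosome 2 (122147686 to 122153083, plus strand). RefSeq promoter windows (GRCm38.p6, 250 bases before to 50 after a transcript start) matched 8 of the 10 genes. H2-Ab1 and Cd74 had no entry. The 180 bases before the start are shown for a pair of class II chains and a pair of class I genes whose RefSeq and GENCODE starts nearly coincide. Promoter letters were not tested against the response to diet. The windows are chr17:34287824-34288003 on the minus strand for H2-Aa, chr17:34305687-34305866 on the plus strand for H2-Eb1, chr17:34000348-34000527 on the minus strand for H2-K1 and chr2:122147507-122147686 on the plus strand for B2m. Each is written 5′ to 3′ and ends at the base before the start. Capitals mark the letters searched on both strands, which are GCAAC from the X box, TGACG from the X2 box, CCAAT for the Y box, the interferon response element (GAAA, any 2 bases, then GAAA again), the gamma-activated site TTCNNNGAA, and GGGGATTCC for enhancer A of class I genes.
H2-Aa promoter: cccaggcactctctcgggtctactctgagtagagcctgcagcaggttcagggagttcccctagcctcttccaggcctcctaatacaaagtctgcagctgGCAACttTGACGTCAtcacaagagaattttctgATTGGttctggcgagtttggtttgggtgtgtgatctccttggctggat
H2-Eb1 promoter: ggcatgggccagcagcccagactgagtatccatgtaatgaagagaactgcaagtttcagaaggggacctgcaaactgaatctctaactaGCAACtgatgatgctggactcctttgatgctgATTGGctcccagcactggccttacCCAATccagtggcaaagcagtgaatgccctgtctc
H2-K1 promoter: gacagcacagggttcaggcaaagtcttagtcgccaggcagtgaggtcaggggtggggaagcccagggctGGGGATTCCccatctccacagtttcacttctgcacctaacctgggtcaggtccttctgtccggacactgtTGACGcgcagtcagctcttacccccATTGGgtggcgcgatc
B2m promoter: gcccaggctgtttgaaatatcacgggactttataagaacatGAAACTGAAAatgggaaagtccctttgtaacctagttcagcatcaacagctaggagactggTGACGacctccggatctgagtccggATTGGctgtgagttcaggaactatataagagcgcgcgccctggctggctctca

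X, X2 and Y boxes are the DNA elements on which RFX, CREB family and NF-Y proteins assemble, with CIITA docking on them at class II promoters and NLRC5 at class I promoters. In H2-Aa the letters stood in the order X (-81 to -77), X2 (-74 to -70, overlapping a match of the other strand at -71 to -67) and Y, as its reverse complement ATTGG (-48 to -44). In H2-Eb1 the X letters (-91 to -87) were followed by ATTGG (-59 to -55) and CCAAT (-35 to -31), and TGACG was not found. In H2-K1 enhancer A (-111 to -103) preceded TGACG (-41 to -37) and ATTGG (-16 to -12). H2-D1 held the same 3 in the same order, at -171 to -163, -101 to -97 and -76 to -72, and also held X letters at -212 to -208 and -14 to -10 and CCAAT at -53 to -49. B2m held the interferon element (-139 to -130), TGACG (-78 to -74) and ATTGG (-53 to -49). Tap1 held CCAAT (-222 to -218), GCAAC (-196 to -192) and TGACG (-86 to -82), H2-DMb1 held ATTGG (-61 to -57), and the 2 windows of H2-DMa held GTTGC (-7 to -3) in one and ATTGG (-198 to -194) in the other. None of the windows of these 8 genes held TTCNNNGAA. Short letters are common: of 32851 promoter windows of this length, 35.2% held GCAAC, 37.4% CCAAT, 20.8% TGACG, 8.3% TTCNNNGAA and 3.44% the interferon element. Only 0.25% (82 windows) held GGGGATTCC, and 2.92% held the X, X2 and Y letters together, as the windows of H2-Aa, H2-D1 and Tap1 did. A match describes letters and is not a measured binding site. Only exact matches were searched, so a window without a match can still hold an element with other letters.

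**Figure D1:**
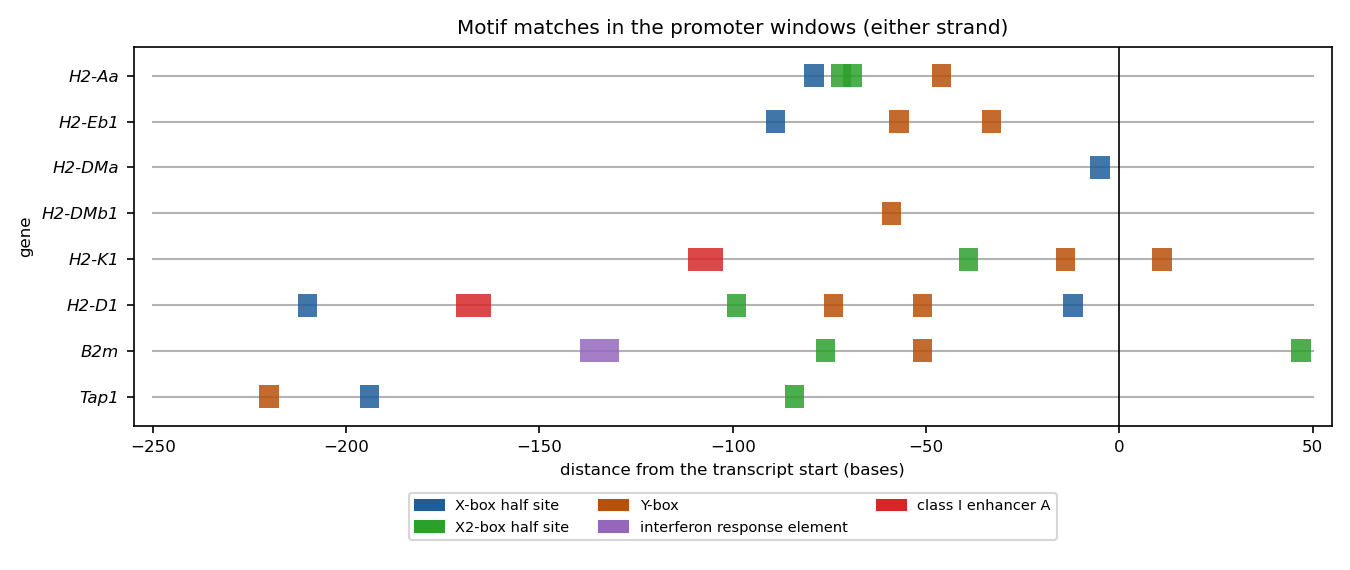
Position of each motif match (coloured boxes, either strand) in the RefSeq promoter windows of 8 antigen presentation genes, as the distance in bases from the transcript start; for H2-DMa and H2-K1 the first of 2 entries is drawn. The letters of enhancer A appear in H2-K1 and H2-D1, and the searched letters of the interferon response element in B2m. Variants of an element with other letters are not drawn.

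Libraries held 17502231 to 25822972 counts, with chow libraries at 17502231 to 23058789 and HFMCD libraries at 22617598 to 25822972. Mboat7 was at 33.0 to 39.7 CPM (counts scaled to a common library total) in WT chow livers and 18.8 to 24.1 CPM in KO chow livers. On HFMCD the WT livers held 34.7 to 38.1 CPM and the KO livers 15.8 to 20.8 CPM of it, with every KO liver below every WT liver. Some chow libraries stood apart. Transcripts of gallbladder and gland mucosa (Dmbt1, Muc6, Tff2, Gkn3) summed to 122 CPM in KO chow replicate 1, 62.6 in KO chow replicate 7, 47.1 in WT chow replicate 3 and 30.8 in WT chow replicate 5, and to less than 1 CPM in each other library. Transcripts of striated muscle summed to 946 CPM in KO chow replicate 7. Genotype results on chow and their differences between diets are given both ways where their sign changes without these livers. Correlations are so given only in part, and ratios only with these livers. Albumin and 5 other hepatocyte markers summed to 83771 to 127066 CPM over all livers.

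HFMCD livers held 5.48 to 8.97 times the transcript of the class II chains of chow livers, in WT and KO mice alike. H2-Aa, the alpha chain of the I-A molecule, was at 12.7 to 28.5 CPM (median 24.0) in the 6 WT chow livers and at 166, 231, 188 and 191 CPM in the 4 WT HFMCD livers. In KO livers it was at 16.99 to 37.2 CPM (median 27.4, n = 7) on chow and at 173, 196, 248.6 and 259 CPM on HFMCD. No HFMCD liver overlapped a chow liver of its genotype. The log2 fold change was 3.16 ± 0.25 (SE; adjusted p = 2.59e-09), or 8.97-fold, in WT, and 3.04 ± 0.23 (adjusted p = 1.04e-09), or 8.24-fold, in KO. More cells of a type and more RNA per cell cannot be told apart in such bulk samples.

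H2-Ab1, the beta chain that pairs with H2-Aa, was at 11.9 to 31.2 CPM (median 21.7) in WT chow livers and at 109.5, 149, 123 and 131 CPM in WT HFMCD livers. Its KO livers held 17.7 to 37.9 CPM (median 25.3) on chow and 122, 130.1, 174 and 159 CPM on HFMCD. Again the diets did not overlap. H2-Ab1 rose 6.01-fold in WT (log2 2.59 ± 0.26, adjusted p = 8.37e-08) and 5.48-fold in KO (2.45 ± 0.25, adjusted p = 5.35e-08). H2-Eb1, the beta chain of the I-E molecule, was at 10.3 to 22.8 CPM (median 18.3) in WT chow livers and at 113, 162, 127 and 126 CPM in WT HFMCD livers. In KO livers H2-Eb1 was at 12.5 to 35.1 CPM (median 21.5) on chow and at 123, 131, 172 and 166 CPM on HFMCD. Its rise was 7.78-fold in WT (log2 2.96 ± 0.26, adjusted p = 9.86e-09) and 6.77-fold in KO (2.76 ± 0.24, adjusted p = 6.58e-09), also with no overlap between the diets. The pseudogene of its alpha chain partner, H2-Ea-ps, had too few reads to be tested.

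The chaperones of class II loading rose with the chains. Cd74 (chromosome 18, 60803848 to 60812652) had the highest mean level per kilobase of exon among the class II genes in every group. It was at 36.7 to 79.9 CPM (median 55.5) in WT chow livers and at 331, 476, 380 and 417 CPM in WT HFMCD livers. In KO livers Cd74 was at 44.6 to 96.1 CPM (median 71.8) on chow and at 358, 386, 539 and 549 CPM on HFMCD. The rise was 7.14-fold in WT (log2 2.84 ± 0.26, adjusted p = 1.65e-08) and 6.80-fold in KO (2.77 ± 0.24, adjusted p = 6.63e-09). H2-DMa and H2-DMb1, which together form the peptide exchanger, had the lowest mean levels per kilobase of the members on chow. H2-DMa was at 2.26 to 4.30 CPM (median 3.30) in WT chow livers and 15.1, 19.6, 16.4 and 18.3 CPM in WT HFMCD livers, and at 2.61 to 4.29 CPM (median 3.39) in KO chow livers and 14.6, 15.8, 20.2 and 21.4 CPM in KO HFMCD livers. H2-DMb1 was at 0.737 to 3.30 CPM (median 2.26) in WT chow livers and 14.4, 16.2, 15.9 and 16.6 CPM in WT HFMCD livers, and at 1.66 to 3.56 CPM (median 3.07) in KO chow livers and 14.9, 16.8, 20.4 and 20.7 CPM in KO HFMCD livers. Neither gene overlapped between diets. H2-DMa rose 5.27-fold in WT and 5.22-fold in KO (log2 2.40 ± 0.17 and 2.38 ± 0.16, adjusted p = 4.61e-11 and 1.13e-11). H2-DMb1 rose 6.99-fold in WT and 6.93-fold in KO (2.80 ± 0.25 and 2.79 ± 0.24, adjusted p = 3.40e-09 and 7.07e-10). Of the longest H2-DMb1 transcript, 27.2% of 50-base windows also occur in H2-DMb2, so some of its reads could have been lost or shared in the authors' counting.

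**Figure D2:**
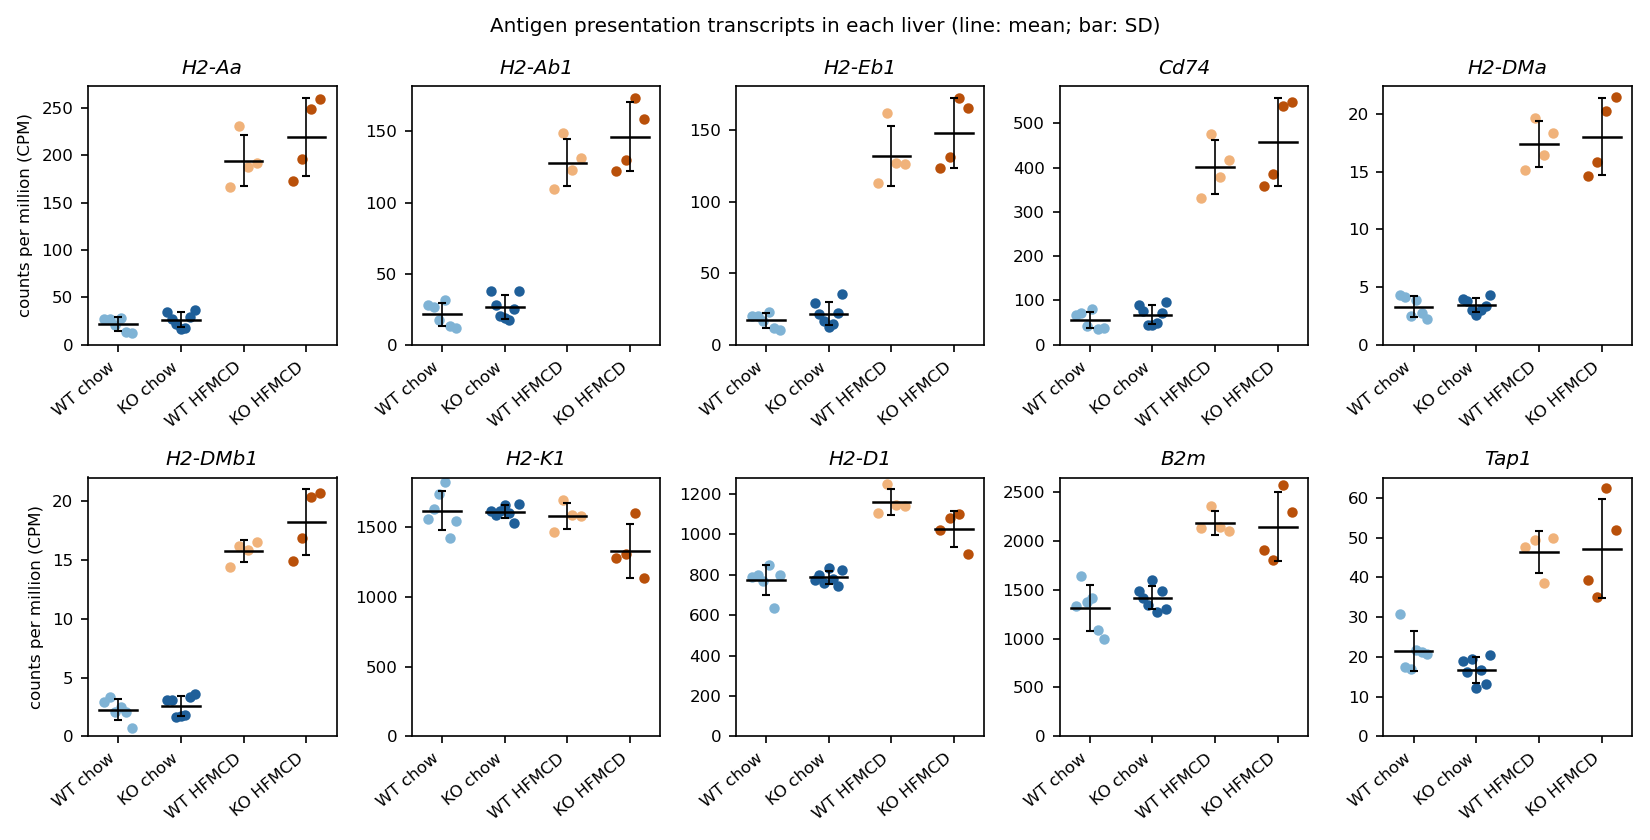
CPM of each antigen presentation transcript in every liver (points), by genotype and diet, with the group mean (line) and SD (bar); each axis starts at 0. The 6 class II transcripts (H2-Aa to H2-DMb1) have all HFMCD livers above all chow livers, whereas H2-K1 has overlapping groups.

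The 4 class I genes had smaller fold changes on HFMCD than the class II genes. H2-K1, the heavy chain of the K molecule, was at 1425 to 1822 CPM (median 1593) in WT chow livers and at 1463, 1695, 1589 and 1579 CPM in WT HFMCD livers, so that the diets overlapped. Its log2 fold change in WT was -0.03 (95% interval -0.22 to 0.15, adjusted p = 0.753). In KO livers H2-K1 was at 1533 to 1668 CPM (median 1615) on chow and at 1279, 1306, 1599.6 and 1134 CPM on HFMCD. Below all KO chow livers lay 3 of the 4 KO HFMCD livers, and replicate 3 lay within the chow range. H2-K1 fell by 0.28 ± 0.09 on the log2 scale in KO (adjusted p = 0.00687), a call lost without KO HFMCD replicate 4 (log2 -0.20, adjusted p = 0.0520), with upper-quartile scaling (adjusted p = 0.0592) and with no filter on low counts (adjusted p = 0.0531).

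H2-D1, the heavy chain of the D molecule, rose in both genotypes. It was at 633 to 850.3 CPM (median 792) in WT chow livers and at 1107, 1251, 1144 and 1139.6 CPM in WT HFMCD livers, a 1.501-fold rise (log2 0.59 ± 0.08, adjusted p = 1.43e-06). In KO livers H2-D1 was at 744 to 831 CPM (median 778) on chow and 1021, 1083, 1100.3 and 901 CPM on HFMCD, a 1.30-fold rise (0.38 ± 0.08, adjusted p = 0.0001625). The diets did not overlap in either genotype. Of the 50-base windows of the longest transcript, 14.3% for H2-D1 and 8.11% for H2-K1 also occur in other class I genes, and with windows of 100 bases the shares were 4.64% and 0%. The read length is not given in the sources used here.

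B2m, the light chain shared by class I molecules, was at 996 to 1643 CPM (median 1357) in WT chow livers and at 2134, 2361, 2140.2 and 2097 CPM in WT HFMCD livers. In KO livers B2m was at 1274 to 1603 CPM (median 1417) on chow and at 1910.4, 1802, 2570.3 and 2297 CPM on HFMCD. It rose 1.67-fold in WT (log2 0.74 ± 0.12, adjusted p = 1.09e-05) and 1.51-fold in KO (0.60 ± 0.11, adjusted p = 7.33e-05), with no overlap between the diets. Tap1, the peptide pump subunit, was at 16.996 to 30.9 CPM (median 20.95) in WT chow livers and at 47.7, 49.4, 38.6 and 49.9 CPM in WT HFMCD livers. In KO livers Tap1 was at 12.1 to 20.6 CPM (median 16.7) on chow and at 39.3, 35.1, 62.6 and 51.9 CPM on HFMCD. It rose 2.16-fold in WT (log2 1.11 ± 0.17, adjusted p = 1.05e-05) and 2.82-fold in KO (1.497 ± 0.17, adjusted p = 7.15e-08), the largest change of the 4 class I genes in both genotypes. Exons of Tap1 overlap those of Psmb9 on the other strand by 212 bases, and exons of H2-DMa overlap those of Brd2 by 360 bases. Without a stated strand setting, reads of those stretches cannot be told apart.

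Counted over the members, 9 of 10 rose and none fell on HFMCD in WT, and 9 rose and 1 fell in KO. Over all 15677 genes tested, 62.5% were called in WT (29.0% higher) and 69.7% in KO (33.7% higher and 36.0% lower), so a call as such is common under this diet. Separation of the libraries was less common, with all HFMCD livers above all chow livers for 23.1% of the genes tested in WT and 25.7% in KO, and all below for 27.3% in KO. The median log2 fold change of the 10 members was 2.49 in WT and 2.42 in KO, against -0.05 and -0.02 over all genes tested. In WT the 6 class II members had fold changes larger than 95.7% to 97.9% of all genes tested, and in KO larger than 94.97% to 97.4%. In WT, Tap1 stood above 85.2%, B2m above 79.2%, H2-D1 above 76.0% and H2-K1 above 51.1% of them.

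**Figure D3:**
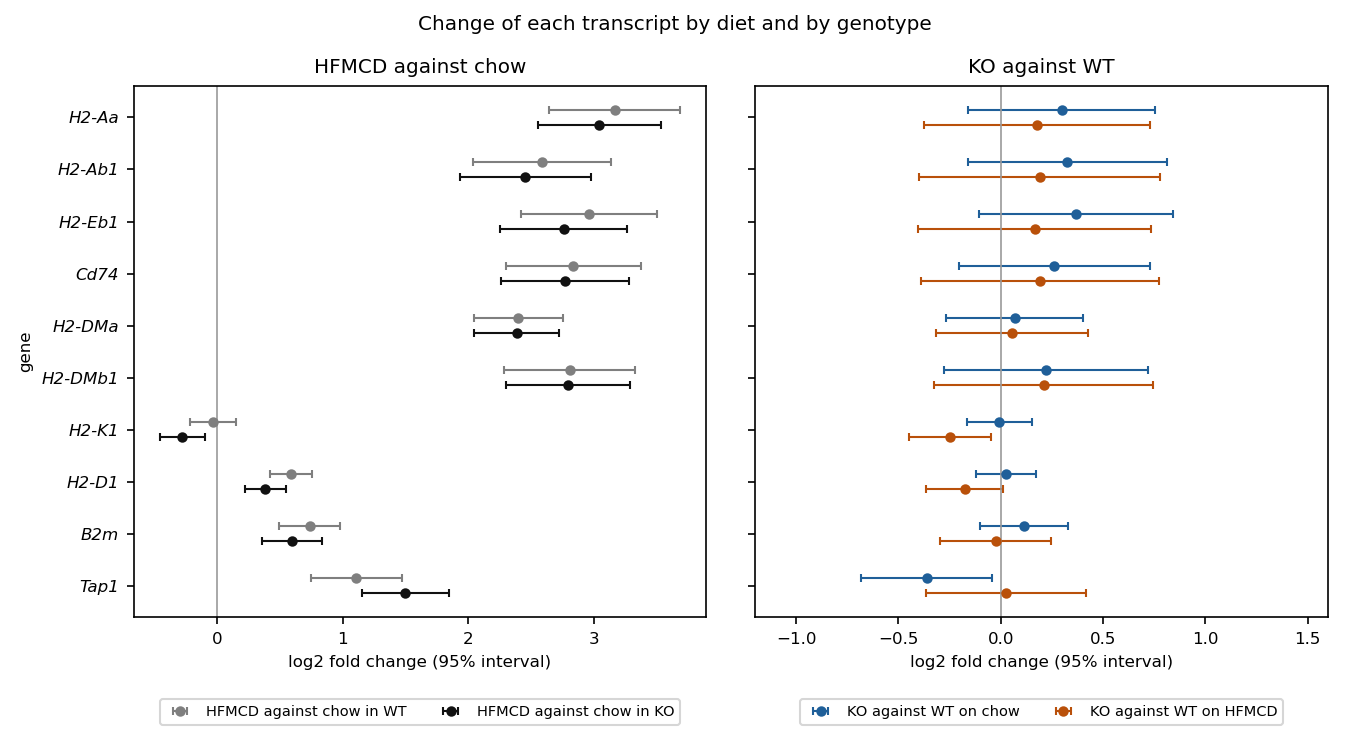
Log2 fold change of each member with its 95% interval, for HFMCD against chow in WT and KO (left) and for KO against WT on chow and HFMCD (right). The class II members lie between 2.38 and 3.16 for diet, the class I members between -0.28 and 1.497, and the values for genotype between -0.36 and 0.37, with intervals that leave out 0 for Tap1 on chow and H2-K1 on HFMCD.

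Levels of different genes were compared per kilobase of annotated exon, since longer transcripts give more reads. In WT chow livers B2m was highest with a mean of 1524 ± 272 CPM per kb (SD, n = 6), followed by H2-K1 at 551 ± 48.4, H2-D1 at 299.7 ± 28.5 and Cd74 at 33.4 ± 11.2, each separated from the next in every liver. H2-Eb1 (8.72 ± 2.56), H2-Ab1 (8.29 ± 3.17), H2-Aa (5.70 ± 1.90) and Tap1 (3.92 ± 0.92) followed and overlapped their neighbours in that order. H2-DMb1 (1.34 ± 0.53) and H2-DMa (0.953 ± 0.262) were lowest and overlapped each other. In WT HFMCD livers Cd74 reached 239 ± 36.4 CPM per kb (n = 4), against 449.9 ± 24.2 for H2-D1, 538 ± 32.2 for H2-K1 and 2539 ± 139.8 for B2m. H2-Eb1 (67.8 ± 10.8), H2-Aa (51.1 ± 7.12) and H2-Ab1 (49.8 ± 6.39) overlapped as neighbours on HFMCD. The order of the means was the same in KO as in WT livers on each diet. The overlaps differed at 1 place per diet: H2-Aa and Tap1 did not overlap in KO chow livers, and H2-K1 and H2-D1 overlapped in KO HFMCD livers (453 ± 66.4 and 398 ± 34.9 CPM per kb). Exon lengths include all annotated transcripts of a gene, so a gene with long minor transcripts is set low by this scale.

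Members of the same class did not change equally with diet. The read count of H2-Aa relative to that of H2-Ab1 in the same library was 0.912 to 1.23 in WT chow livers and 1.46 to 1.55 in WT HFMCD livers. In KO livers the same ratio was 0.894 to 1.17 on chow and 1.42 to 1.63 on HFMCD. The log2 ratio differed by 0.56 in WT (exact permutation test, two-sided, p = 0.00476) and 0.58 in KO (exact p = 0.00303), which are the smallest p these group sizes allow. Adjusted over the 28 ratio tests made, both were 0.0167. H2-D1 relative to H2-K1 was 0.444 to 0.516 in WT and 0.469 to 0.503 in KO chow livers, and 0.720 to 0.757 and 0.688 to 0.830 in HFMCD livers (log2 difference 0.62 and 0.67, adjusted p = 0.0167 for both, exact permutation test). B2m relative to H2-K1 was 0.644 to 1.01 and 0.782 to 0.974 on chow, and 1.33 to 1.46 and 1.38 to 2.03 on HFMCD (0.79 and 0.88, adjusted p = 0.0167 for both, exact permutation test). Cd74 relative to H2-Ab1 was higher on HFMCD by 0.22 in WT (exact permutation adjusted p = 0.0923) and by 0.30 in KO (adjusted p = 0.0189). A ratio within a library does not depend on the scaling between libraries. These ratios were chosen after the members' counts had been seen.

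**Figure D4:**
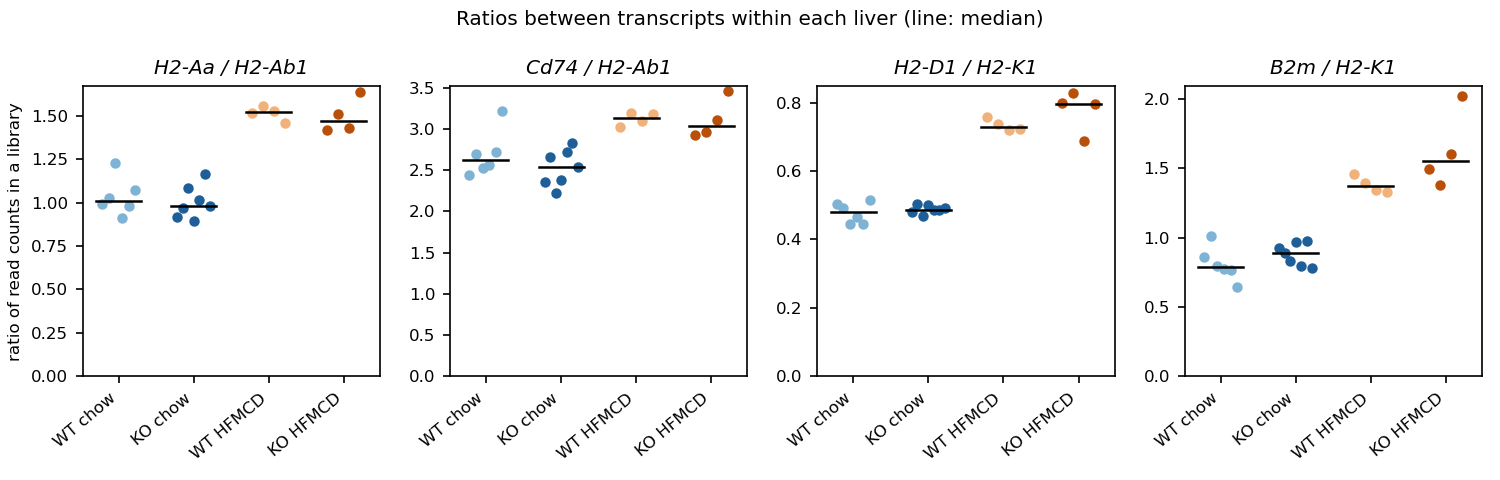
Ratio of the read counts of 2 members in each liver (points) with the group median (line), by genotype and diet; each axis starts at 0. The ratios of H2-Aa to H2-Ab1, H2-D1 to H2-K1 and B2m to H2-K1 have all HFMCD livers above all chow livers.

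Of 18 further genes of class II presentation, 16 were tested. In WT, where 29.0% of all genes tested were called higher and 33.6% lower, 11 rose and 2 fell on HFMCD, with a median log2 fold change of 1.39. In KO, where these shares were 33.7% and 36.0%, 11 rose and 2 fell, with a median of 1.52 (median of all genes tested: -0.05 in WT and -0.02 in KO). Those with the smallest p in both genotypes were Ctss, the protease cathepsin S that trims the invariant chain (log2 3.54 in WT and 3.81 in KO), Lgmn, an asparagine endopeptidase (1.84 and 2.03), Ifi30, a lysosomal thiol reductase (2.171 and 2.25), and March1, a ubiquitin ligase that lowers surface class II (1.80 and 1.99). Ciita, the transactivator of class II genes, had a mean of 1.34 ± 0.69 CPM in WT chow (SD, n = 6), 1.51 ± 0.59 in KO chow (n = 7), 8.65 ± 1.43 in WT HFMCD (n = 4) and 9.51 ± 2.57 in KO HFMCD livers (n = 4). It rose by 2.69 ± 0.32 in WT (log2, adjusted p = 2.28e-07) and 2.64 ± 0.30 in KO (adjusted p = 7.63e-08). Named after their values were seen, the 2 that fell in both genotypes were Rfxap (log2 -0.42 and -0.66) and Rfxank (-0.60 and -0.67), subunits of the RFX complex that binds the X box. Rfx5, the remaining subunit, had values of -0.02 and -0.12 and was not called.

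Of 30 further genes of class I presentation, 29 were tested. In WT, where 29.0% of all genes tested were called higher and 33.6% lower, 17 rose and 5 fell on HFMCD (median log2 fold change 0.51). In KO, where these shares were 33.7% and 36.0%, 16 rose and 4 fell (median 0.52). In WT the smallest p belonged to H2-Q1 (log2 2.91), H2-M2 (5.17), both non-classical heavy chains, Mr1, which presents vitamin B metabolites (1.67), and Tapbpl, a peptide editor (0.95). In KO it was H2-Q1 (2.20), Mr1 (1.83), H2-M2 (4.64) and Psmb9, an immunoproteasome subunit (2.22). H2-Q1 belongs to a family with stretches of identical sequence, so its count is uncertain. Nlrc5, the transactivator of class I genes, fell in both genotypes. It had a mean of 31.4 ± 7.18 CPM in WT chow, 33.1 ± 3.196 in KO chow, 21.7 ± 4.08 in WT HFMCD and 19.9 ± 2.44 in KO HFMCD livers (SD). Nlrc5 fell by 0.53 ± 0.15 in WT (log2, adjusted p = 0.00372), where the diets overlapped, and by 0.74 ± 0.15 in KO (adjusted p = 0.000116), where they did not.

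Interferon gamma is the classical inducer of both MHC classes and acts on class II genes through Irf1 and Ciita. Of 12 genes of this axis, 11 were tested, and none of them fell on HFMCD. In WT, where 29.0% of all genes tested were called higher, 8 rose (median log2 fold change 0.97). In KO, where that share was 33.7%, 9 rose (median 1.12). In WT the smallest p belonged to the receptor subunit Ifngr2 (log2 1.55), the transcription factor Irf8 (1.77), the kinase Jak1 (0.72) and the guanylate-binding protein Gbp2 (2.82). In KO it was Ifngr2 (1.91), Irf8 (1.81), Jak1 (0.79) and Ifngr1 (1.12). Irf1, a transcription factor of the axis, had a log2 fold change of 0.44 in WT (adjusted p = 0.0708) and rose by 0.63 in KO (adjusted p = 0.00801). Ifng itself had too few reads to be tested, with group medians of 0, 0, 0 and 0.112 CPM in WT chow, KO chow, WT HFMCD and KO HFMCD livers.

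Most markers of leukocytes, macrophages and T cells rose on HFMCD, while B cell markers did not move one way and some dendritic cell markers fell. The pan-leukocyte markers Ptprc, Cd53, Laptm5 and Coro1a summed to 37.9 to 71.7 CPM in WT chow, 44.4 to 63.5 in KO chow, 240.5 to 287 in WT HFMCD and 240.2 to 341 in KO HFMCD livers, and 4 of 4 rose in both genotypes. Markers of recruited macrophages summed to 74.1 to 170.5 CPM in WT chow and 95.5 to 129 in KO chow livers, and to 1228 to 1515 and 1389 to 1813 on HFMCD, with 8 of 8 higher in both genotypes. Kupffer cell markers summed to 227 to 660.3 and 340.3 to 469.9 CPM on chow and 1019.8 to 1322 and 856 to 1119 on HFMCD (6 of 8 higher in both genotypes). Their log2 fold changes ran from -0.26 to 2.79 in WT and from -0.13 to 2.64 in KO. The largest was that of Adgre1, which other macrophages also carry, so these sums are no measure of Kupffer cells alone. Dendritic cell markers summed to 16.9 to 24.0 and 19.4 to 26.2 CPM on chow and 46.0 to 62.2 and 55.1 to 72.0 on HFMCD. Itgax, which some macrophages also carry, had the largest log2 fold change of this list (5.05 in WT and 4.99 in KO). It made up a large part of the HFMCD sums, which are thus no measure of the other markers. Of the 9 dendritic cell markers 6 rose and 2 (Clec9a and Zbtb46) fell in both genotypes. B cell markers were low, at 1.23 to 9.30 and 4.68 to 11.7 CPM on chow and 8.67 to 9.46 and 6.07 to 9.99 CPM on HFMCD, with 2 of 6 tested higher in WT and 2 of 6 lower in KO. T and NK cell markers summed to 3.02 to 6.50 and 4.96 to 6.06 CPM on chow and to 9.92 to 15.7 and 9.53 to 18.9 CPM on HFMCD (8 of 8 and 6 of 8 higher). Endothelial markers summed to 159 to 306 CPM on chow and 291 to 371 CPM on HFMCD over both genotypes, with 5 of 7 higher in WT and 3 of 7 in KO. Stellate cell markers summed to 225 to 322 and 221 to 460.03 CPM on chow and 793 to 915 and 861 to 1062 CPM on HFMCD, with 5 of 6 higher in both genotypes. Bile duct markers were higher for 2 of 6 in WT and 5 of 6 in KO, and hepatocyte markers lower for 3 of 6 in WT and 4 of 6 in KO. Over all genes tested, 29.0% were called higher and 33.6% lower in WT, and 33.7% higher and 36.0% lower in KO. The B cell counts, the bile duct count in WT and the endothelial count in KO lay near these shares. None of these lists had a marker at 0 in every liver of a group. The part of these cells in the class II rise was not tested.

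Set against single immune markers, H2-Ab1 rose more than one, less than another and about as much as the third. Its read count relative to Ptprc (CD45, on all leukocytes) was 0.917 to 2.09 in WT chow and 2.19 to 2.51 in WT HFMCD livers, and 1.32 to 2.39 and 2.19 to 2.97 in KO livers. The log2 ratio was higher on HFMCD by 0.72 in WT (exact permutation adjusted p = 0.0485) and 0.65 in KO (adjusted p = 0.0339). Relative to Itgax (CD11c, on dendritic cells and some macrophages) it was 14.2 to 31.5 and 16.2 to 37.6 on chow, and 3.21 to 4.48 and 2.84 to 4.85 on HFMCD, in WT and KO. This log2 ratio was lower by 2.55 and 2.71 (adjusted p = 0.0167 for both, exact permutation test). Itgax itself rose by 5.05 and 4.99. Relative to Adgre1 (F4/80, on macrophages) the diets overlapped and the log2 ratio differed by -0.20 in WT and -0.16 in KO (exact permutation p = 0.538 and 0.333). Adgre1 rose by 2.79 in WT and 2.64 in KO. Between genotypes on HFMCD, the ratio of H2-Ab1 to Adgre1 was 1.12 to 1.44 in WT and 1.51 to 1.91 in KO livers. That log2 difference was 0.34 (exact permutation p = 0.0286, the smallest these group sizes allow, adjusted 0.0667). None of the genotype comparisons of a ratio had an adjusted p under 0.05.

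Deletion of Mboat7 in hepatocytes was compared with WT on each diet. On chow 0 of 10 members were called by edgeR, and 1 had an unadjusted p under 0.05. DESeq2 also called 0. Over all genes tested, 2.17% were called (0.561% higher and 1.61% lower). The class II members had log2 fold changes, KO against WT, of 0.30 for H2-Aa (95% interval -0.16 to 0.75), 0.32 for H2-Ab1 (-0.16 to 0.81), 0.37 for H2-Eb1 (-0.11 to 0.84), 0.26 for Cd74 (-0.20 to 0.73), 0.07 for H2-DMa (-0.27 to 0.40) and 0.22 for H2-DMb1 (-0.28 to 0.72). KO chow replicates 1 and 7, which held mucosal or muscle transcripts, had the highest H2-Aa, H2-Ab1, H2-Eb1, Cd74 and H2-DMa of their group. Without these 2 livers the values were 0.07 for H2-Aa, 0.05 for H2-Ab1, 0.05 for H2-Eb1, 0.02 for Cd74, -0.055 for H2-DMa and 0.05 for H2-DMb1. Without all 4 livers rich in Dmbt1 they were -0.069, -0.13, -0.056, -0.17, -0.20 and -0.0065 in the same order, still with 0 members called.

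Of the class I members, the heavy chains and B2m had narrow intervals around small values on chow. The log2 fold change was -0.01 for H2-K1 (95% interval -0.16 to 0.15), 0.03 for H2-D1 (-0.12 to 0.17) and 0.11 for B2m (-0.10 to 0.33). Tap1 had the smallest p of the members on chow. Its mean was 21.5 ± 5.02 CPM in WT (SD, n = 6) and 16.7 ± 3.199 CPM in KO livers (n = 7), and the log2 fold change of -0.36 (-0.68 to -0.04) did not pass the test (adjusted p = 0.216, unadjusted p = 0.0289). WT and KO livers overlapped for Tap1, with WT chow replicate 1 (30.9 CPM) above all other chow livers. Without KO chow replicates 1 and 7 the value of Tap1 was -0.47 (adjusted p = 0.162), and without the 4 livers rich in Dmbt1 it was -0.55 (adjusted p = 0.150).

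On HFMCD 0 of 10 members were called between KO and WT by edgeR, 1 had an unadjusted p under 0.05, and DESeq2 called 0. Over all genes tested, 0.319% were called (0.223% higher and 0.0957% lower). The 6 class II members had log2 fold changes of 0.05 to 0.21, and the widest interval was that of H2-Ab1 (0.19, 95% interval -0.40 to 0.78). KO HFMCD replicates 3 and 4 held more of all 6 than replicates 1 and 2 of that group. B2m (-0.03, -0.30 to 0.25) and Tap1 (0.03, -0.37 to 0.42) were centred near 0. The heavy chains did not pass the test either. H2-K1 was 1329.7 ± 195 CPM in KO and 1581 ± 94.7 CPM in WT livers (SD, n = 4 each), a log2 fold change of -0.25 (-0.45 to -0.05, adjusted p = 0.364, unadjusted p = 0.0167). H2-D1 was 1026 ± 90.1 CPM in KO and 1160.4 ± 62.4 CPM in WT livers, with all 4 KO livers below all 4 WT livers and a log2 fold change of -0.18 (-0.36 to 0.01, adjusted p = 0.533). Such full separation downward was seen for 3.66% of all genes tested in this comparison. Markers of bile duct epithelium summed to 40.6 to 67.6 CPM in KO HFMCD and 17.2 to 21.5 CPM in WT HFMCD livers, with 4 of 6 higher. Hepatocyte, endothelial and Kupffer cell markers had 0 calls, and median log2 fold changes of -0.23, -0.24 and -0.15, with negative values for all 6, 7 and 8 markers tested. The median of B cell markers was -0.39. Medians were positive for markers of recruited macrophages (0.32), T and NK cells (0.16), leukocytes (0.14), stellate cells (0.14) and dendritic cells (0.05). The part of these cells in the values of the heavy chains was not tested. Ptprc, Itgax, Adgre1 and the other leukocyte, macrophage, dendritic, B and T cell markers had 0 calls between genotypes on either diet.

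The effect of genotype was then compared between diets, which is also the test of whether the diet effect differs between genotypes. None of the 10 members was called by edgeR, none had an unadjusted p under 0.05, DESeq2 called 0, and 0% of all genes tested passed. H2-K1 had a difference of -0.24 ± 0.12 (log2, SE; adjusted p = 0.516), so the lower H2-K1 on HFMCD in KO was not shown to differ from the value in WT, which was not called. Tap1 had the largest difference of the members, 0.39 ± 0.24 (adjusted p = 0.645). The other members had differences from -0.20 to -0.01. None of the 16 further class II genes, 29 further class I genes and 11 interferon axis genes tested was called for genotype on either diet.

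Within groups, the class II genes had high correlations from liver to liver. Log2 CPM was taken as the deviation from the group mean and compared within each diet. The 15 pairs among the 6 class II genes had Pearson's r of 0.80 to 0.97 over the 13 chow livers and of 0.82 to 0.99 over the 8 HFMCD livers. For H2-Ab1 and H2-Aa, r was 0.96 and Spearman's rho 0.97 on chow (permutation p = 3e-05 for both, permuted within genotype; adjusted 0.00024 and 0.00048 over the 16 relations tested). On HFMCD r was 0.96 and rho 0.90 (exact permutation p = 0.0122 and 0.0208, adjusted 0.0324 and 0.0556). Without the 2 livers farthest in H2-Ab1, r was 0.96 on both diets. For H2-Ab1 and Cd74, r was 0.97 on chow and 0.98 on HFMCD and rho was 0.92 and 0.93 (permutation p = 2e-05 and 0.00694 for r, adjusted 0.00024 and 0.0278; 7e-05 and 0.0139 for rho, adjusted 0.00056 and 0.0556). Without the 2 farthest livers r was 0.97 and 0.98. For H2-Ab1 and H2-DMb1, r was 0.82 on chow and 0.88 on HFMCD (permutation p = 0.00058 and 0.0226, adjusted 0.00309 and 0.0516), and rho was 0.73 and 0.88 (p = 0.0106 and 0.0312, adjusted 0.0556 and 0.0714). Without the 2 farthest livers this r was 0.83 and 0.80. On HFMCD the rho of these 3 pairs, and the r of H2-Ab1 with H2-DMb1, thus missed an adjusted 0.05.

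H2-K1 and H2-D1 had r of 0.78 on chow (rho 0.64, permutation p = 0.00883 and 0.0202, adjusted 0.0283 and 0.0556) and 0.85 on HFMCD (rho 0.79, exact permutation p = 0.0365 and 0.0573, adjusted 0.0583 and 0.0944). Without the 2 livers farthest in H2-K1, r fell to 0.29 on chow, so that relation rests on those livers, and was 0.76 on HFMCD. The class II genes had r of 0.14 to 0.45 with H2-K1 on chow and of 0.22 to 0.51 on HFMCD. For H2-Ab1 and H2-K1 the permutation p of r was 0.207 on chow (rho 0.48, p = 0.150) and, exact, 0.302 on HFMCD (rho 0.60, p = 0.184). B2m had r of 0.43 to 0.62 with the class II genes on chow and 0.77 to 0.86 on HFMCD. For H2-Ab1 and B2m the permutation p of r was 0.0794 on chow (adjusted 0.0978) and, exact, 0.0330 on HFMCD (adjusted 0.0583). Their rho was 0.50 and 0.83 (permutation p = 0.126 and 0.0590, adjusted 0.168 and 0.0944), so this relation missed an adjusted 0.05 on both diets. Without the 2 livers farthest in H2-Ab1, its r was 0.38 on chow and 0.75 on HFMCD. B2m and Tap1, with r of -0.36 on chow (rho -0.43, permutation p = 0.276 and 0.145) and 0.90 on HFMCD (rho 0.71, exact permutation p = 0.0451 and 0.186, adjusted 0.0648 and 0.186), had opposite signs on the 2 diets, a difference that was not tested. Without the 2 livers farthest in B2m, this r was -0.36 on chow and 0.67 on HFMCD. H2-Ab1 and Ptprc had r of 0.64 on chow and 0.82 on HFMCD (rho 0.57 and 0.76, permutation p = 0.0269 and 0.0486, adjusted 0.0537 and 0.0648). Library depth differed between these livers, and 4 of the chow livers held the mucosal transcripts named above. KO chow replicate 7 also held muscle transcripts. The part of these in the correlations within a diet was not tested.

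**Figure D5:**
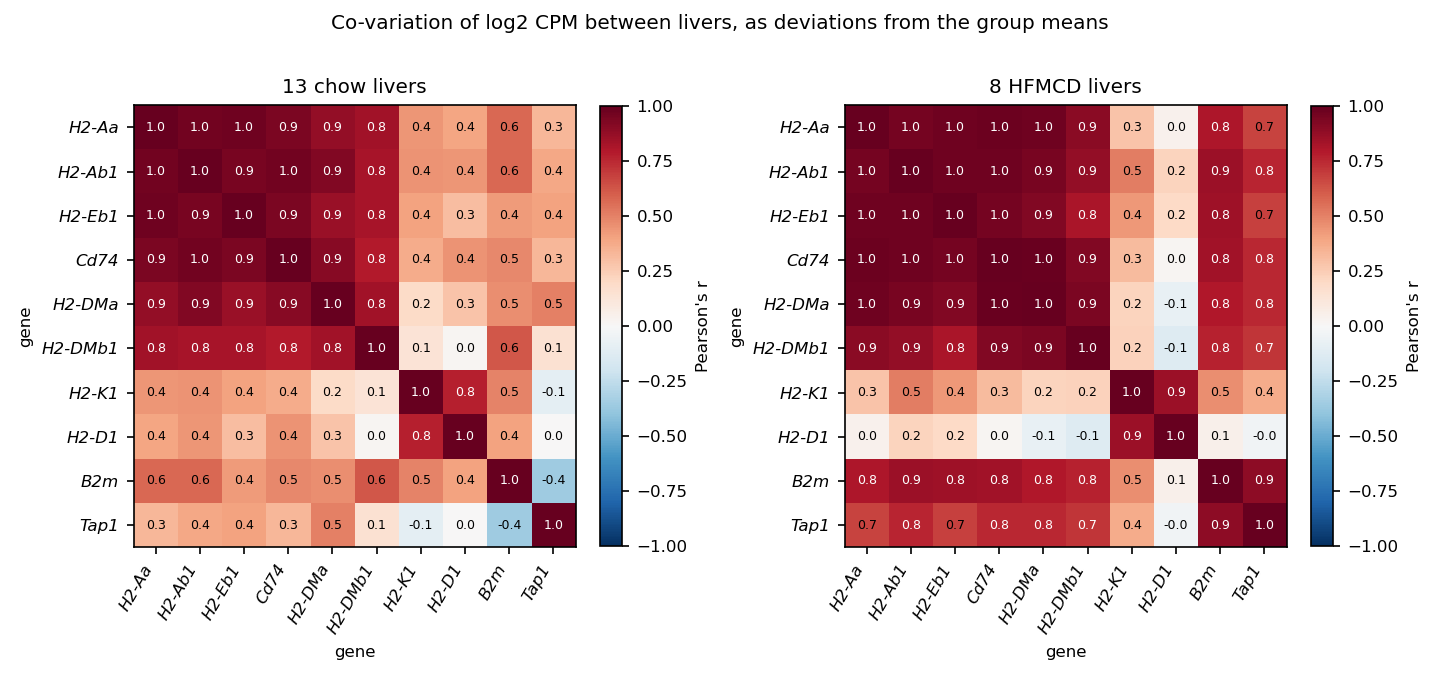
Pearson's r between members across the 13 chow livers (left) and the 8 HFMCD livers (right), from log2 CPM as deviations from the group means; colour runs from -1 (blue) to 1 (red). The class II genes form a block from 0.80 on chow and from 0.82 on HFMCD, and H2-K1 and H2-D1 have 0.78 and 0.85, the first of which falls to 0.29 without 2 livers.

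Log2 CPM was again taken as the deviation from the group mean, now over all 21 livers, so differences between the groups do not enter r. The genes closest to H2-Ab1 among all tested were Cd74, H2-Aa, H2-Eb1 and H2-DMa, in that order (r 0.96, 0.96, 0.95 and 0.91), and H2-DMb1 ranked 34 (0.82). The 8 closest genes outside the members were Ly6e (r 0.89), Cd52, Rac2, Rab7b, Myo1f, Spi1 and Pea15a (each 0.88) and Ms4a7 (0.87). Without KO chow replicates 1 and 7 these 8 had r of 0.82 to 0.97. Spi1 encodes the myeloid transcription factor PU.1, Rac2 a GTPase of blood cells, Cd52 a surface protein of leukocytes and Ms4a7 a membrane protein of macrophages. H2-Ab1 had r of 0.70 with Ciita over all 21 livers (0.70 on chow and 0.78 on HFMCD) and of 0.80 with Itgax (0.84 on chow and 0.29 on HFMCD). With B2m and Tap1 its r was 0.59 and 0.43 over all 21 livers, and 0.74 and 0.30 without KO chow replicates 1 and 7. The gene closest to H2-K1 was H2-D1 (0.78). Outside the members, Gm49024, Sap30l, L3hypdh, Mrpl28, Tmem39b, Pdap1, Anapc13 and Uqcc2 followed, with r of 0.73 to 0.77.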

How the data were processed

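RNA-seq read counts were used for 21 whole mouse livers. The authors deposited 1 table per library with raw counts per gene symbol, without normalization. Per the submitters' processing notes, which give no roles, the tools were CASAVA 2.17, STAR 2.6.1d and featureCounts 1.6.1, with the build GRCm38. The annotation, strand setting and read length are not given in the sources used here. Library totals ran from 17502231 to 25822972 counts, so the precision of genes with many reads is set mainly by the spread between livers. Genes with few reads, such as H2-DMb1 with 15 counts in WT chow replicate 6, also carry counting noise. Reads were not reduced to molecules. Within groups, 0 library pairs were identical. Each library carries an animal number of its own in the labels.

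Counts were fitted in edgeR 4.0.16 (R 4.3.3) as 1 quasi-likelihood model of 4 group means with filterByExpr (15677 genes left), TMM scaling and robust dispersions. F tests were two-sided, and p was adjusted by Benjamini-Hochberg over all genes and called under 0.05. An SE was taken from each log2 fold change and its F value. CPM uses TMM-scaled totals of the tested genes, and log2 CPM a prior count of 2. Ratios and correlations were compared by permutation tests and were added after the members' counts were seen. Alternatives were DESeq2 1.42.0, limma-voom (limma 3.58.1), RLE and upper-quartile scaling, other filters on low counts, the compared groups alone, and libraries left out. The fit was checked on simulated data. The members, gene lists, markers and left-out libraries were chosen with earlier results of these data known. Named beyond the members were up to 4 called genes with the smallest p of each pathway list, Ciita, Nlrc5, Ifng and Irf1, and the 8 genes most like H2-Ab1 and H2-K1; 1 further gene of that rule is not reported here. Other genes named, among them Rfxap, Rfxank, Rfx5 and those of the other observations, were chosen after their values were seen. Promoter windows are from RefSeq (GRCm38.p6) and positions from GENCODE M21. Replicates are numbered in accession order, which pairs no livers.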

Additional observations from a re-analysis of the deposited data

Results flagged for a closer look

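In 3 of the 40 combinations of a member and a group, 1 liver stood far from the others by Dixon's test at 95%, which chance gives in about 1 group in 20. H2-D1 was lowest in WT chow replicate 5, at 633.1 CPM, where the next liver was at 771 CPM; this liver also held mucosal transcripts. B2m was highest in WT HFMCD replicate 2, at 2361 CPM, with the next at 2140.2 CPM. Tap1 was highest in WT chow replicate 1, at 30.85 CPM, with the next at 21.8 CPM.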

How the results depend on the processing

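The number of members called was 0 for both genotype comparisons and for their difference under every alternative run, 9 for diet in WT under every alternative, and 9 or 10 for diet in KO. For diet in KO, H2-K1 lost its call with upper-quartile scaling (log2 -0.20), with no filter (-0.23) and without 1 liver (-0.37 to -0.20 over the livers left out in turn). All other diet calls kept their direction and call in all alternatives run. The remaining changes were changes of sign in values that were not called. For KO against WT on chow without the 4 Dmbt1-rich livers, values were -0.069 (H2-Aa), -0.13 (H2-Ab1), -0.056 (H2-Eb1), -0.17 (Cd74), -0.20 (H2-DMa), -0.0065 (H2-DMb1) and -0.048 (H2-D1), and without KO chow replicates 1 and 7 that of H2-DMa was -0.055. H2-K1 on chow was 0.00099 with DESeq2 and RLE, 0.0035 with upper-quartile scaling and 0.0030 with only the groups compared. On HFMCD, limma-voom gave -0.041 for H2-DMa and -0.030 for Tap1. H2-K1 for diet in WT was 0.035 with upper-quartile scaling and 0.015 with no filter. For the difference between diets, leaving out KO chow replicates 1 and 7 gave 0.10 (H2-Aa), 0.14 (H2-Ab1), 0.11 (H2-Eb1), 0.17 (Cd74), 0.11 (H2-DMa) and 0.15 (H2-DMb1). Leaving out the 4 Dmbt1-rich livers gave 0.24, 0.32, 0.22, 0.36, 0.25 and 0.22, and H2-DMb1 was 0.011 with limma-voom and 0.0029 with upper-quartile scaling. With each liver left out in turn, values ran from -0.011 to 0.16 (H2-DMa), -0.030 to 0.048 (H2-K1) and -0.014 to 0.073 (H2-D1) for genotype on chow, from -0.042 to 0.14 (H2-DMa), -0.13 to 0.049 (B2m) and -0.14 to 0.14 (Tap1) for genotype on HFMCD, from -0.063 to 0.052 (H2-K1) for diet in WT, and from -0.22 to 0.037 (Cd74), -0.11 to 0.072 (H2-DMa) and -0.18 to 0.15 (H2-DMb1) for the difference. The cause of these changes was not tested.

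Background counts over all genes depend more on the choice of model: for genotype on chow, 340 genes were called with edgeR, 705 with DESeq2, 113 with limma-voom, 2 with only the chow groups fitted and 144 without KO chow replicates 1 and 7. On HFMCD, the share called was 0.319% with edgeR, 1.23% with DESeq2, 2.05% with limma-voom, 2.05% with only the HFMCD groups fitted and 0.906% without these 2 livers. For the difference between diets, 0 were called with edgeR, 97 with DESeq2, 10 with limma-voom and 84 without these 2 livers. With each liver left out in turn, the calls on chow ran from 49 (without WT chow replicate 5; 50 without replicate 6) to 611 (without WT chow replicate 3), and those on HFMCD from 1 (without WT HFMCD replicate 2; 2 without replicate 1) to 75 (without KO chow replicate 1), with 1 to 16 left without any 1 of the 8 HFMCD livers. With no filter the median log2 fold change of all genes for diet in KO was -0.11. No paired analysis was possible because the replicate numbers are accession order and pair no livers.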

Other observations

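Class I heavy chains other than H2-K1 and H2-D1 did not move alike on HFMCD. These genes, apart from H2-M2 and H2-Q1, were chosen after their values were seen. H2-T22, a ligand of some gamma-delta T cells, had means of 61.7 ± 9.41 CPM in WT chow and 108.4 ± 10.7 CPM in WT HFMCD livers (SD), and of 60.1 ± 6.72 and 103.9 ± 6.85 CPM in KO livers, and rose by 0.81 and 0.79 (log2, adjusted p = 4.44e-07 and 2.77e-07, edgeR). H2-M3, which presents formylated peptides, rose by 1.13 and 1.09 (adjusted p = 8.76e-06 and 5.72e-06). H2-M2 went from a mean of 0.136 to 5.06 CPM in WT and from 0.229 to 5.89 CPM in KO livers. H2-Q10, a secreted class I chain of the liver, had means of 1366 and 1469 CPM on chow and 1520.4 and 1324 CPM on HFMCD in WT and KO, and was not called for diet in either genotype (log2 0.15 and -0.15, adjusted p = 0.182 and 0.178). H2-T23, the ligand of CD94/NKG2 receptors, was at 217 and 230 CPM on chow and 219 and 197 CPM on HFMCD and was not called either (0.02 and -0.22, adjusted p = 0.897 and 0.0686).

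Also chosen after their values were seen, apart from Psmb9, were genes of peptide supply and loading. The immunoproteasome, whose subunits cut peptides for class I, had 3 subunits that rose: Psmb9 by 1.82 in WT and 2.22 in KO, Psmb8 by 1.05 and 1.22 and Psmb10 by 0.78 and 0.85, each past the test in both genotypes and with no overlap between diets. Over all genes tested, 29.0% were called higher and 33.6% lower in WT, and 33.7% and 36.0% in KO. All HFMCD livers lay above all chow livers for 23.1% of the genes tested in WT and 25.7% in KO. Exons of Psmb9 overlap those of Tap1 on the other strand. Of the chaperones of the loading complex, Tapbp rose (0.64 and 0.52) and Calr fell (-0.94 and -0.48). Pdia3 fell in WT (-0.40, adjusted p = 0.0288), had a value of 0.14 in KO (adjusted p = 0.426, edgeR), and Canx was not called (-0.07 and 0.05).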
